A study of Homo sapiens with 4 samples.

Results

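The annexins are a family of proteins that bind acidic phospholipids of cell membranes when calcium rises. The genes described here are 10 members of it, ANXA1, ANXA2, ANXA3, ANXA4, ANXA5, ANXA6, ANXA7, ANXA10, ANXA11 and ANXA13, out of 17687 named genes. They were found by their symbols in the platform annotation, and each had 1 probe set, so choosing the brightest probe set per gene changed nothing. The members were selected on their levels in each line and their mimic minus control differences, so those values are given as a description without a test. Of the 10, 9 passed the filter on low values, which kept 12381 genes, and ANXA13 did not.

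RNA came from Li-7 and HEP-G2, established lines from human liver cancers. In each line, cells were transfected with a miR-4730 mimic, a duplex that acts as this microRNA, or with the supplier's negative control #1 (per the labels, 3 nM mimic, given with a lipid reagent when cells had been plated for 24 h), which gave the groups Li-7 mimic, Li-7 control, HEP-G2 mimic and HEP-G2 control. Each group had 1 Affymetrix array, so no difference between 2 arrays has a replicate error. Li-7 was grown in RPMI-1640 and HEP-G2 in DMEM, both with serum, so line and medium cannot be told apart, and in bulk RNA fewer cells of a kind and less RNA per cell cannot be told apart either. The mature miR-4730 of RefSeq (GRCh38.p14, chr17:80419427-80419449, plus strand) is shown because it is the sequence the mimic copies, with its seed in capitals (bases 2 to 8).
hsa-miR-4730: cUGGCGGAgcccauuccaugcca

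Annexins share a core of repeated domains that holds calcium and grips the membrane, and they differ in the tail before it. That tail binds partners, above all small calcium-binding S100 proteins. The family is known for membrane repair, vesicle traffic, anchoring of the actin skeleton and, for annexin A5, for coating exposed phosphatidylserine. Annexins A2 and A3 have been studied as markers of liver cancer.

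As a check of the transfection, HMGA1, the high mobility group gene in the study's title, stood at 10.91 with the mimic and 14.93 with the control in Li-7, and at 11.61 with the mimic and 14.79 with the control in HEP-G2 (limma adjusted p = 0.0241 over both lines). The array medians ran from 7.03 to 7.17 on the deposited log2-like scale. A value was read as above background when it exceeded 95% of the 612 negative controls on its array, a limit that ran from 7.99 to 8.72. Of 10 hepatocyte markers, 9 lay above that limit on both HEP-G2 arrays, against 2 on the Li-7 mimic array (APOH and SERPINA1) and 0 on the Li-7 control array, with FOXA2 under it on all 4. Their mean value was 6.04 and 5.76 on the Li-7 mimic and control arrays, against 14.57 and 14.07 on those of HEP-G2. Of 6 biliary or progenitor markers, 6 did so on both Li-7 arrays and 5 on both HEP-G2 arrays, with CD24 the exception. All 4 endothelial markers were under the limit on every array, as were 4 of 5 blood markers, LYZ being above it. Of 5 stromal markers, COL1A2 was above it on all arrays and ACTA2 on both HEP-G2 arrays. The hepatocyte markers therefore differed between the lines along with the annexins below (hepatocyte markers lower in Li-7), and their part in the annexin differences was not tested.

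The annexins separated the lines. ANXA1, ANXA10, ANXA3 and ANXA2 were higher in Li-7, ANXA6 was higher in HEP-G2, and ANXA4, ANXA5, ANXA7 and ANXA11 lay nearer to each other in both lines. On the control arrays 5 of the 9 annexins kept were at least 2-fold higher in Li-7, against 19.3% of the 12381 genes, and 1 was at least 2-fold lower, against 16.6%. On both the mimic and the control pair, 4 were at least 2-fold higher in Li-7, against 15.8% of genes, and 1 was at least 2-fold lower, against 13.3%. The median Li-7 minus HEP-G2 difference on the control arrays was 1.39 over these 9 and 0.023 over all genes. Of the 9, 6 lay above the negative controls on all arrays. Of the 5 higher in Li-7 on the control arrays, ANXA2 and ANXA4 were among these 6. ANXA1, ANXA3 and ANXA10 were under the negative controls on the HEP-G2 control array, and ANXA10 passed the filter only through its Li-7 values. Since the levels chose the members, the shares above describe the set only.

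**Figure D1:**
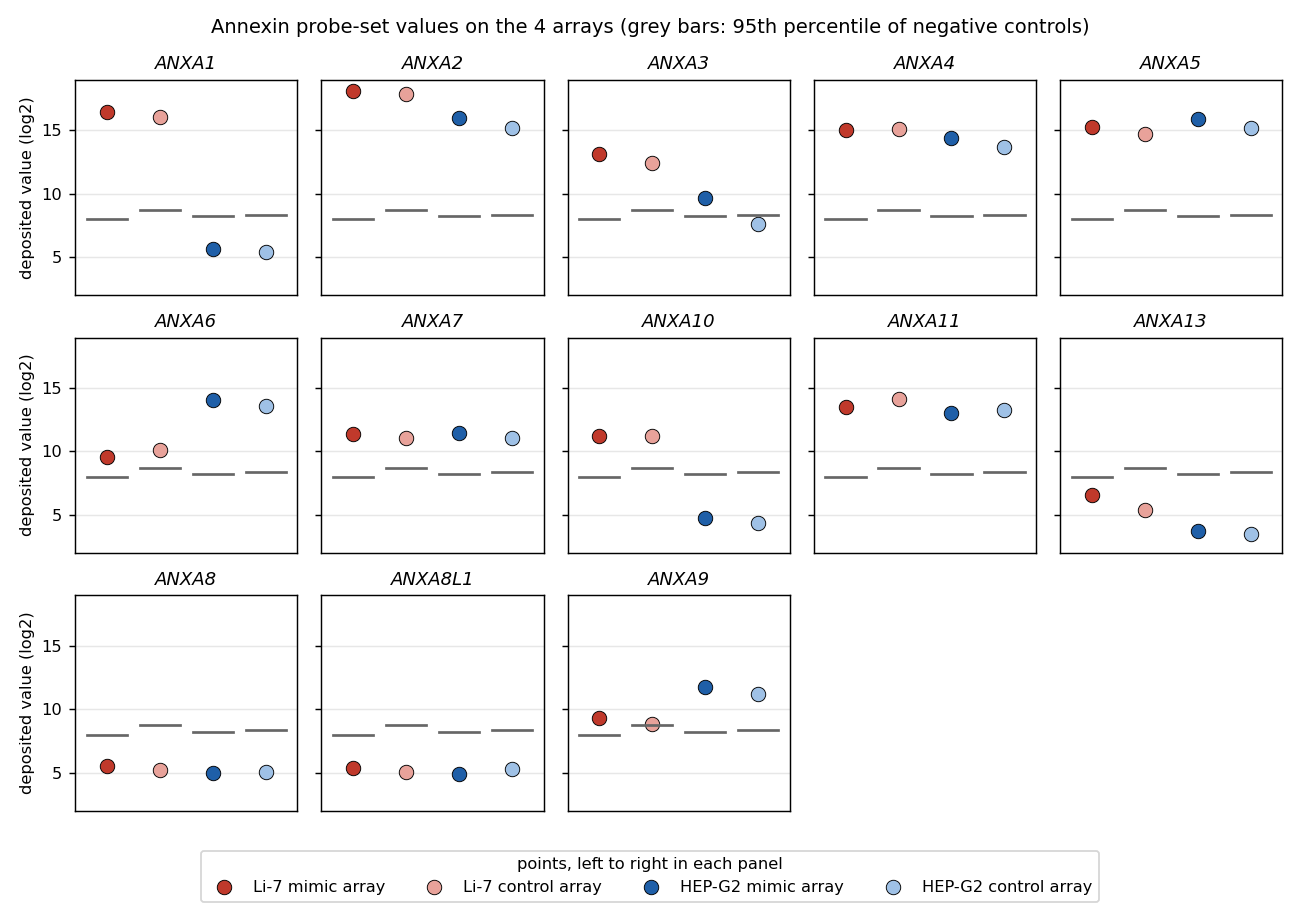
Each panel shows 1 annexin, with its deposited value (log2) on the Li-7 mimic, Li-7 control, HEP-G2 mimic and HEP-G2 control arrays from left to right, and grey bars for the 95th percentile of the negative controls of each array. ANXA1 and ANXA10 lie above the bars in Li-7 and under them in HEP-G2, and ANXA13, ANXA8 and ANXA8L1 lie under them on all 4 arrays. There is 1 array per group and no error bar.

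Annexin A1, an anti-inflammatory protein that restrains phospholipase A2, showed the widest gap. ANXA1 stood at 16.48 with the mimic and 16.03 with the control in Li-7, against 5.65 with the mimic and 5.40 with the control in HEP-G2. Both Li-7 values were far above the negative controls and both HEP-G2 values were under them, so HEP-G2 has only a bound. The measured difference on the control arrays was 10.63 on the log2 scale, and the negative controls allow it to be read as at least 205-fold higher in Li-7. On the mimic arrays it was 10.83, or at least 310-fold.

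Annexin A10, best known from stomach epithelium and poor in working calcium sites, was likewise measured above background in Li-7 alone. ANXA10 stood at 11.24 on both Li-7 arrays, against 4.77 with the mimic and 4.37 with the control in HEP-G2. The HEP-G2 values were again under the negative controls. ANXA10 was at least 8.22-fold higher in Li-7 on the mimic arrays and at least 7.42-fold higher on the control arrays.

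Annexin A3, found in neutrophil granules and in epithelia, stood at 13.15 with the mimic and 12.39 with the control in Li-7, against 9.68 with the mimic and 7.56 with the control in HEP-G2. All but the HEP-G2 control value were above the negative controls. The Li-7 minus HEP-G2 difference was 3.47 on the mimic arrays, and at least 16.5-fold on the control arrays.

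Annexin A2, which pairs with S100A10 beneath the plasma membrane and binds plasminogen activator at the surface, was above the negative controls on every array. ANXA2 stood at 18.12 with the mimic and 17.85 with the control in Li-7, against 16.01 with the mimic and 15.20 with the control in HEP-G2. The difference between the lines was 2.11 on the mimic arrays and 2.65 on the control arrays, which is 6.29-fold on the control arrays.

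Annexin A6, whose core is duplicated and which organises cholesterol-rich membrane and late endosomes, ran the other way. ANXA6 stood at 9.53 with the mimic and 10.11 with the control in Li-7, against 14.03 with the mimic and 13.59 with the control in HEP-G2. All 4 values were above the negative controls. The Li-7 minus HEP-G2 difference was -4.50 on the mimic arrays and -3.48 on the control arrays.

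The other annexins above background differed less between the lines. ANXA4, an annexin of secretory epithelia, stood at 15.06 with the mimic and 15.07 with the control in Li-7, against 14.36 with the mimic and 13.68 with the control in HEP-G2. Its Li-7 minus HEP-G2 difference was 0.70 on the mimic arrays and 1.39, or 2.62-fold, on the control arrays. ANXA5, the phosphatidylserine binder, was slightly lower in Li-7, with 15.29 with the mimic and 14.73 with the control there, against 15.89 with the mimic and 15.17 with the control in HEP-G2. ANXA7, or synexin, which fuses secretory granules, stood at 11.38 with the mimic and 11.10 with the control in Li-7, against 11.45 with the mimic and 11.07 with the control in HEP-G2.
The lines nearly coincided for ANXA7, with a Li-7 minus HEP-G2 difference of 0.027 on the control arrays, which turned to -0.088 after median centring. ANXA11, a long-tailed annexin that tethers RNA granules to lysosomes, stood at 13.49 with the mimic and 14.11 with the control in Li-7, against 13.07 with the mimic and 13.26 with the control in HEP-G2. Its difference on the control arrays was 0.85. For scale, the median absolute difference between the lines over all genes kept was 0.67 on the control arrays.

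ANXA13, an annexin of intestine and kidney epithelium, lay under the negative controls on all 4 arrays, at 6.57 with the mimic and 5.40 with the control in Li-7 and at 3.70 with the mimic and 3.47 with the control in HEP-G2, so no fold is given. Of the annexins outside the set, ANXA8 and ANXA8L1 were also under them on every array, between 4.88 and 5.53, and as near-identical copies they may share probes. ANXA9, an annexin that has lost its typical calcium sites, was above them on every array. It stood at 9.35 with the mimic and 8.81 with the control in Li-7, against 11.77 with the mimic and 11.20 with the control in HEP-G2, and was lower in Li-7 by limma over all genes (mean difference -2.41, SE 0.24, Benjamini-Hochberg adjusted p = 0.000261). That test takes its spread from the disagreement between the mimic and the control pair, drawn mostly from all genes together, not from replicate cultures.

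**Figure D2:**
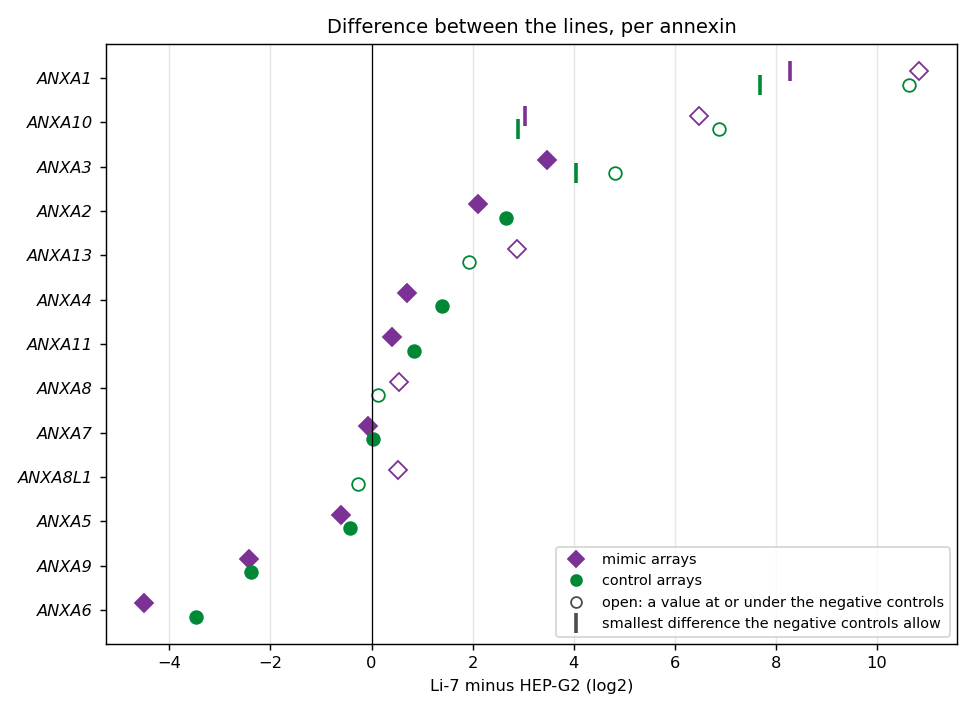
Li-7 minus HEP-G2 differences (log2) of 13 annexins on the mimic arrays (diamonds) and the control arrays (circles), open where a value lies at or under the negative controls, with a vertical tick at the smallest difference those controls allow. ANXA1 reaches 10.83 and 10.63 at the top, and ANXA6 lies at -4.50 and -3.48 at the bottom.

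By Euclidean distance over the 4 values, each centred on the gene's own mean, the 3 genes with the pattern nearest to that of ANXA1 were TM4SF18 (distance 0.30), TMSB4X (0.55) and MMP7 (0.59). TM4SF18, a tetraspan membrane protein, stood at 14.04 with the mimic and 13.56 with the control in Li-7, against 3.24 with the mimic and 3.30 with the control in HEP-G2. TMSB4X, the actin-sequestering thymosin beta, and MMP7, matrilysin, were likewise under the negative controls on both HEP-G2 arrays. This likeness rests on 4 arrays, and the gap between the lines makes up most of it.

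The promoters of the annexins were not used in choosing them. RefSeq windows of the 250 bases before the start (GRCh38.p14) were found for 9 of the 10, and where a gene had several starts the outermost is given. They were searched for the dinucleotide CG, a site of DNA methylation that reads the same on both strands, and on both strands for TATAAA, the core of the TATA box. The 6 windows below belong to the annexins with the widest line differences and to ANXA5, one of those with a small difference, 5′ to 3′ on the gene's strand, with every CG and TATAAA in capitals. ANXA1 and ANXA10 are the pair with no CG at all.
ANXA1, chr9:73151615-73151864, plus strand: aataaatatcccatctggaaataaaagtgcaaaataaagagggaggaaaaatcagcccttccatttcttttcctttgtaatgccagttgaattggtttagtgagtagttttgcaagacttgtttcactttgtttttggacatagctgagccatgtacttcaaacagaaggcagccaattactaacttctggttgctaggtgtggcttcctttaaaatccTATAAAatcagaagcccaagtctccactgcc
ANXA10, chr4:168092287-168092536, plus strand: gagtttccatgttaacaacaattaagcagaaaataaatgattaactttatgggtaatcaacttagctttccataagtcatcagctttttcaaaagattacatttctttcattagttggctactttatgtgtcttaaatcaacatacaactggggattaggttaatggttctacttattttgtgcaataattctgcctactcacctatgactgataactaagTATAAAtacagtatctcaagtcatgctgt
ANXA3, chr4:78551520-78551769, plus strand: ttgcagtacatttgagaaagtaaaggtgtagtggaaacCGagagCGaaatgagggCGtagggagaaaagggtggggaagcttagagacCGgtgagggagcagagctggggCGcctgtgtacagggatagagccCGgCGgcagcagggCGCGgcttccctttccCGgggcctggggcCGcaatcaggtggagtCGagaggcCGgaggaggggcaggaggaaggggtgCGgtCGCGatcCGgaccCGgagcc
ANXA2, chr15:60397987-60398236, minus strand: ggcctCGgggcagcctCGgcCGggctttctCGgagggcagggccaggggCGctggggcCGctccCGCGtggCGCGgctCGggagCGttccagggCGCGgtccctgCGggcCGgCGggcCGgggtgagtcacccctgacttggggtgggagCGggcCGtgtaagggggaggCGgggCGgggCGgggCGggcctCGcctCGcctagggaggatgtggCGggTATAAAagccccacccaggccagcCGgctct
ANXA6, chr5:151157780-151158029, minus strand: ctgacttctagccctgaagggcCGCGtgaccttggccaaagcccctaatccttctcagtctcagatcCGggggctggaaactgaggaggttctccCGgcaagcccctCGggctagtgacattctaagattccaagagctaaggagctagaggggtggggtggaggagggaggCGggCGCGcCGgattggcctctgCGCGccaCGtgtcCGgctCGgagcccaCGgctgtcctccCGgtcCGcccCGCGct
ANXA5, chr4:121696981-121697230, minus strand: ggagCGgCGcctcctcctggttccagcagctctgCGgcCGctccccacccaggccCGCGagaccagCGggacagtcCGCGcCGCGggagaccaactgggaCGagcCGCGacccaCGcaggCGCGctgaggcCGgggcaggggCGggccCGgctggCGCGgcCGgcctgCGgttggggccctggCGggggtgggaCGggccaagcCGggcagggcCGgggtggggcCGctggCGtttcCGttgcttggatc

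The windows of ANXA1 and ANXA10 held 0 CG dinucleotides each, at a GC content of 38.4% and 31.2%, against a median of 20 CG and a GC content of 64.4% over the 10168 tested genes with a window. Only 1.19% of those genes, 121 in all, had no CG. Both windows carried TATAAA, with its first base at -31 in ANXA1 and at -29 in ANXA10, counting back from -1 next to the start. ANXA2 carried it too, at -31, but with 28 CG. ANXA11 had it at -61 from its outermost start. On the gene's strand TATAAA occurred in 4.41% of all windows and on either strand in 6.56%.

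The remaining windows were richer in CG, with 18 in ANXA3, 19 in ANXA6, 20 in ANXA7, 31 in ANXA5 and 36 in ANXA4, while the outermost of ANXA11 had 9. The inner starts had 21 for ANXA4, 10 for ANXA6, and 22 and 5 for ANXA11. The annexins that were above background in one line and under it in both arrays of the other were the 2 without CG. These are only 2 genes, and the levels in each line were among the values that chose the members, so no link is read from this. Over all tested genes with a window, 49.6% of the 121 with no CG differed at least 2-fold between the control arrays, 43.0% of those with 1 to 9, 31.3% with 10 to 19, 32.9% with 20 to 29 and 35.8% with 30 to 58. Genes with no CG also had lower values, with a median of 6.62 against 9.32 for those with 10 to 19 CG, and the part of signal level in this order was not tested. A match to these letters is a description of the window and says nothing of what binds there.

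**Figure D3:**
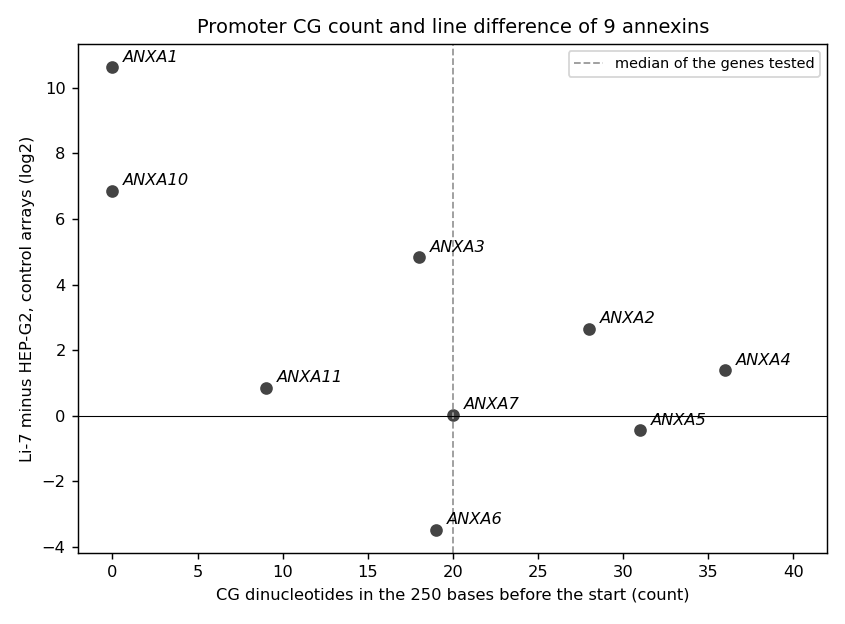
Number of CG dinucleotides in the 250 bases before the outermost start (x axis) and the Li-7 minus HEP-G2 difference on the control arrays (y axis, log2) for the 9 annexins with a window, with a dashed line at the median of 20 CG over the tested genes. ANXA1 and ANXA10 sit at 0 CG with differences of 10.63 and 6.87, and ANXA6 sits at 19 CG with -3.48. The levels behind these differences were among the values that chose the members.

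Mimic minus control differences of the annexins lay between -0.62 and 2.12. The member that stood out in value was ANXA3, at 9.68 with the mimic against 7.56 with the control in HEP-G2 and at 13.15 against 12.39 in Li-7. Its measured HEP-G2 difference of 2.12 starts from a control value under the negative controls, so it is read as at least 2.51-fold higher. In Li-7 the difference was 0.76, or 1.69-fold, with both values above background. ANXA3 was the 1 of 9 annexins kept that was at least 2-fold higher in HEP-G2, against 5.77% of genes, and none of the 9 was in Li-7, against 3.72%. None of the 9 was at least 2-fold lower in Li-7, against 4.12% of genes, or in HEP-G2, against 6.28%.

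Differences were positive for 8 of the 9 in HEP-G2, against 51.2% of genes, and for 6 of the 9 in Li-7, against 51.8%. The medians of the 9 were 0.44 in HEP-G2 and 0.27 in Li-7, against 0.018 and 0.021 over all genes. In both lines 6 were higher, against 34.1% of genes, and 1, ANXA11, was lower, against 31% of genes, while 2 had opposite signs, against 34.9%. These counts and medians take in ANXA1 and ANXA10, which were under the negative controls on both HEP-G2 arrays. Of the 6 annexins above the negative controls on all arrays, 3 were higher in both lines, against 1945 of 5552 genes. As the responses chose the members, nothing is read from these shares.

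Among the annexins above background on all arrays, ANXA5 was higher with the mimic by 0.56 in Li-7 cells and 0.72 in HEP-G2 cells. ANXA2 was higher by 0.27 in Li-7 cells and 0.81 in HEP-G2 cells, and ANXA7 by 0.28 and 0.37. ANXA11 differed by -0.62 in Li-7 cells and -0.19 in HEP-G2 cells. The median absolute difference over all genes was 0.33 in Li-7 cells and 0.39 in HEP-G2 cells, so ANXA5 lay past it in both lines and ANXA7 was below it in both.
ANXA6 and ANXA4 had opposite signs in the lines. ANXA6 differed by -0.58 in Li-7 cells and 0.44 in HEP-G2 cells, and ANXA4 by -0.0085 and 0.68, of which the Li-7 value turned to 0.033 after cyclic loess. ANXA10 differed by 0.0027 in Li-7, and ANXA1 by 0.45. In HEP-G2 ANXA1 and ANXA10 were under the negative controls on both arrays, so no response is given for them there, and likewise for ANXA13 in either line.

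**Figure D4:**
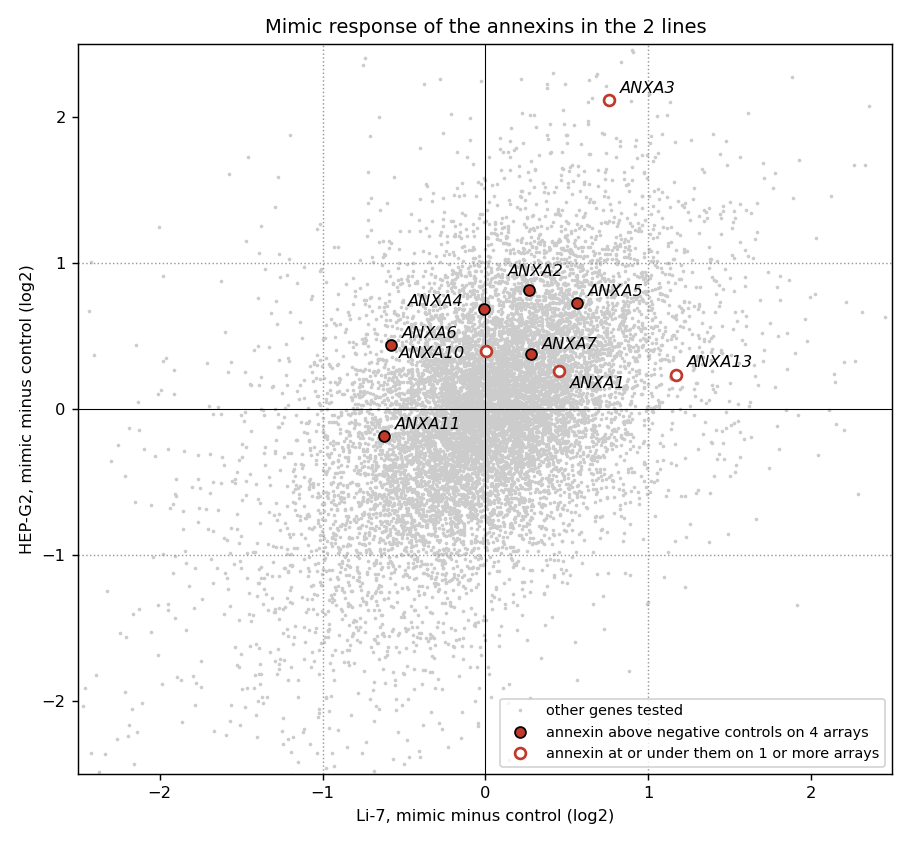
Mimic minus control (log2) in Li-7 (x axis) and HEP-G2 (y axis) for the 10 annexins, filled where all 4 values lie above the negative controls and open otherwise, over the 12381 genes tested in grey, of which 59 fall outside the axes. Dotted lines mark 2-fold. ANXA3 lies highest at 0.76 and 2.12, and ANXA11 is the 1 annexin lower in both lines.

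The S100 proteins, the best known partners of annexin tails, also separated the lines. Of 19 listed genes 12 passed the filter, and by limma over all genes 7 of these were higher and 2 lower in Li-7, against 24.3% and 20.7% of genes. Of the 7, 3 lay above the negative controls on all arrays (S100A10, S100A11 and S100A16), and of the 2, 0 did. In all, 4 of the 12 lay above them on all arrays. Over all genes 5552 did, of which 1197 were higher and 1044 lower in Li-7. S100A6, calcyclin, stood at 13.99 with the mimic and 13.47 with the control in Li-7, against 6.14 with the mimic and 4.48 with the control in HEP-G2, where both values were under the negative controls. It was at least 55.2-fold higher in Li-7 on the mimic arrays and at least 34.8-fold on the control arrays.
S100A11, which binds the tail of annexin A1, stood at 16.22 with the mimic and 15.50 with the control in Li-7, against 13.60 with the mimic and 11.71 with the control in HEP-G2 (mean difference between lines 3.21, limma adjusted p = 0.000286). S100A10, the partner of annexin A2 and named here after its values were seen, stood at 16.81 with the mimic and 16.90 with the control in Li-7, against 15.98 with the mimic and 15.12 with the control in HEP-G2. As for ANXA2, all its values were above background, and the line difference was 0.83 on the mimic and 1.78 on the control arrays (limma adjusted p = 0.0119). S100P, also named afterwards, was lower in Li-7, where it was under the negative controls on both arrays, at 4.96 with the mimic and 5.57 with the control, against 9.25 with the mimic and 8.92 with the control in HEP-G2. The negative controls allow S100P to be read only as at least 2.4-fold lower in Li-7 on the mimic arrays and at least 1.15-fold on the control arrays.

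With the mimic, 0 of the 12 S100 genes passed limma's test as higher at an adjusted p of 0.05, against 0.0808% of genes, and 0 as lower, against 0.339% (in either direction 0.42%). At an unadjusted p of 0.05 there were 4 of the 12, against 19.5% of genes, a share to be read beside the counts of the lists below. For the S100 genes their median change was 0.14 in Li-7 cells and 0.83 in HEP-G2 cells, against 0.021 and 0.018 over all genes. These medians take in S100 genes under the negative controls, as only 4 of the 12 lay above them on all arrays. S100A11 differed by 0.72 in Li-7 cells and 1.89 in HEP-G2 cells (mean 1.30, adjusted p = 0.12). S100A16 differed by 0.67 and 1.16 (adjusted p = 0.14), with all values above background. S100A6 differed by 0.52 in Li-7 and S100A2 was under the negative controls throughout. At least 2-fold higher with the mimic were 1 of the 12 in Li-7 cells, against 3.72% of genes, and 5 in HEP-G2 cells, against 5.77%. Among those 5, S100A2, S100A3 and S100A6 were under the negative controls on both HEP-G2 arrays.

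**Figure D5:**
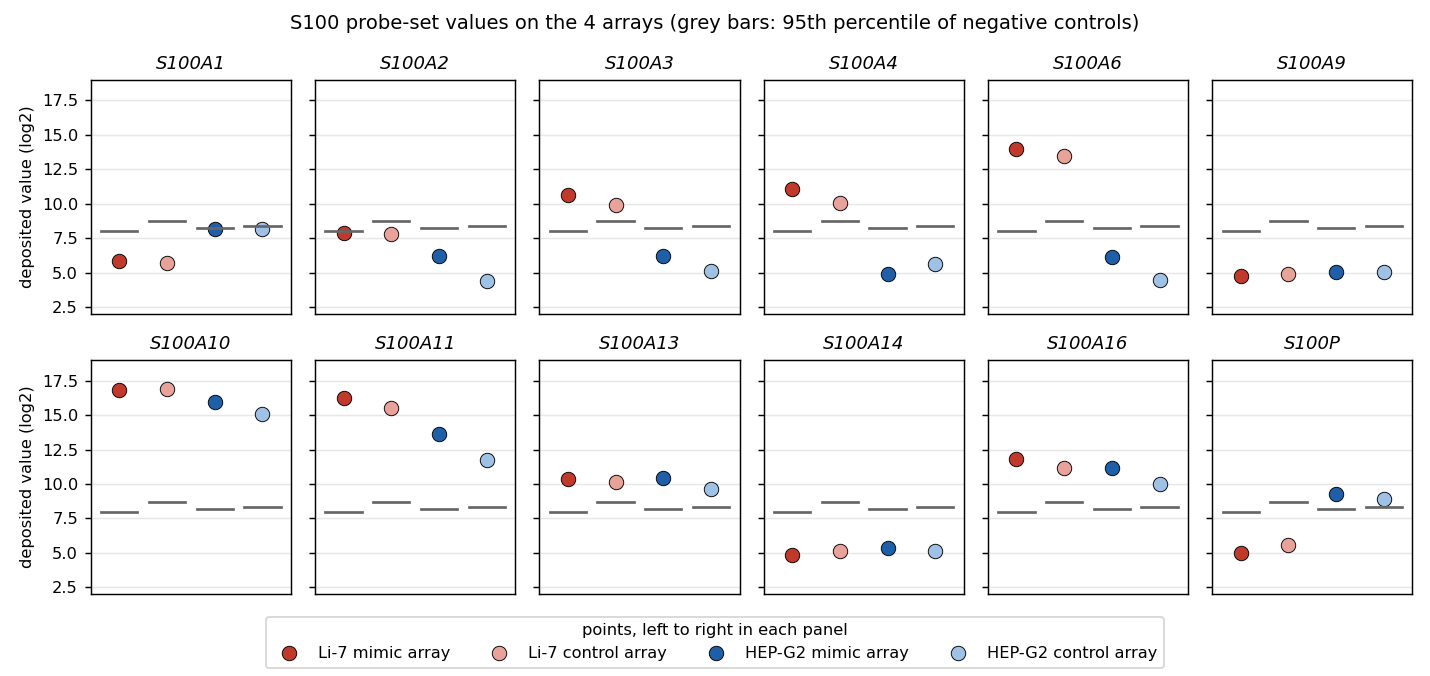
Each panel shows 1 of the 12 S100 genes kept, with its deposited value (log2) on the Li-7 mimic, Li-7 control, HEP-G2 mimic and HEP-G2 control arrays from left to right, and grey bars for the 95th percentile of the negative controls. S100A6 and, named after their values were seen, S100A3 and S100A4 lie above the bars in Li-7 and under them in HEP-G2, and S100A11 lies above them throughout.

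Genes of membrane repair, in which annexins gather at wounds where calcium enters, included several that differed between the lines. Of 18 genes kept, 8 were higher in Li-7 by limma, against 24.3% of genes, and 0 lower, against 20.7%. Of the 18, 11 lay above the negative controls on all arrays, and 5 of these 11 were among the 8. Over all genes 5552 lay above them on all arrays, of which 1197 were higher in Li-7. CAPN2, the large subunit of a calpain protease needed for membrane repair, stood at 15.39 with the mimic and 14.39 with the control in Li-7, against 12.33 with the mimic and 10.17 with the control in HEP-G2 (mean line difference 3.64, adjusted p = 0.000149). MYOF, the ferlin myoferlin, was at least 51.9-fold higher in Li-7 on the control arrays, where its HEP-G2 value of 7.18 lay under the negative controls.
With the mimic none of the 18 passed limma's test (5 at an unadjusted p of 0.05), with a median change of 0.20 in Li-7 cells and 0.36 in HEP-G2 cells. CAPN2 differed by 1.01 and 2.16 (mean 1.58, adjusted p = 0.088), EHD1, a membrane-remodelling ATPase, by 1.17 and 0.64 (adjusted p = 0.15), and EHD2, its caveolar relative, by -2.30 in Li-7 (adjusted p of the mean = 0.18), being under the negative controls on both HEP-G2 arrays.

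Genes that move or read phosphatidylserine, the lipid annexin A5 coats, had positive mimic differences in both lines for 12 of 14 kept, against 34.1% of genes, and negative in both for 0, against 31%. The list mixes scramblases, flippases and receptors, so this count is no measure of exposure. Only 4 of the 14 lay above the negative controls on all arrays, of which 3 were positive in both lines. Over all genes 5552 lay above them on all arrays, of which 1945 were positive in both lines. None of the 14 passed limma's test (6 at an unadjusted p of 0.05). AXL, a receptor for phosphatidylserine-bound GAS6, stood at 13.94 with the mimic and 13.02 with the control in Li-7. In HEP-G2 it stood at 8.49 with the mimic, against a control value of 7.16 under the negative controls, so it is read there as at least 1.1-fold higher. The mean difference of AXL, 1.13 (limma adjusted p = 0.10), uses that control value as measured. Its relative TYRO3 differed by 1.16 and 1.03 (adjusted p = 0.099), but only its Li-7 mimic value of 8.57 was above background. PLSCR4, a scramblase family member, was under the negative controls on all arrays, and ATP8B1, a lipid flippase, differed by 0.98 in Li-7 (adjusted p of the mean = 0.15) and was under them in HEP-G2.

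In the plasmin system that annexin A2 gathers at the surface, 6 genes were kept and 0 passed for the mimic, against 0.42% of genes (3 at an unadjusted p of 0.05, against 19.5%). PLAU, urokinase, stood at 16.41 with the mimic and 13.95 with the control in Li-7, and at 8.46 with the mimic in HEP-G2 against a control value of 7.83 under the negative controls (adjusted p = 0.13). In HEP-G2 PLAU is thus read as at least 1.08-fold higher with the mimic. PLAUR, its receptor, differed by 1.26 in Li-7 cells and 1.29 in HEP-G2 cells (mean 1.27, adjusted p = 0.077), and was above background only on the Li-7 mimic array. PLG, plasminogen, was under the negative controls on all arrays, and SERPINE2, a protease inhibitor, differed by -0.24 in Li-7 and was under them in HEP-G2.

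Of 14 other annexin partners kept, 0 passed (4 at an unadjusted p of 0.05). SRI, or sorcin, a calcium protein that binds the tail of annexin A7, stood at 13.07 with the mimic and 12.11 with the control in Li-7, against 4.25 with the mimic and 2.99 with the control in HEP-G2. Its HEP-G2 values were under the negative controls, so it was at least 29.2-fold higher in Li-7 on the mimic arrays and at least 13.5-fold on the control arrays, whereas ANXA7 differed by 0.027 on the control arrays. ACTB, an actin, differed with the mimic by -1.58 in Li-7 cells and -0.90 in HEP-G2 cells (adjusted p = 0.099). NPC1, the lysosomal cholesterol exporter, differed by 0.67 and 0.94 (adjusted p = 0.16) and LGALS3, galectin 3, by 0.52 and 0.82 (adjusted p = 0.22).

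Among 12 other calcium and lipid binding proteins of the C2 kind, 0 passed for the mimic (3 at an unadjusted p of 0.05), with CPNE7 under the negative controls throughout. ESYT1 and ESYT2, tethers between endoplasmic reticulum and plasma membrane, differed by means of 0.65 and 0.56 (adjusted p = 0.23 and 0.27), and CPNE8, a copine, by 0.62 (adjusted p = 0.23). Of 5 genes kept among annexin A1 receptors, phospholipases A2 and their followers, 0 passed (1 at an unadjusted p of 0.05). The formyl peptide receptors FPR1, FPR2 and FPR3, through which annexin A1 acts on white blood cells and which are named here after their values were seen, were under the negative controls on all arrays. PLA2G15, a lysosomal phospholipase, was above background on all arrays and differed by a mean of 0.52 (adjusted p = 0.31). PLAAT3 was under the negative controls on both HEP-G2 arrays and differed by -0.15 in Li-7. PLA2G12A was under them on the Li-7 mimic array and differed by -0.50 in HEP-G2, while PTGS1 was under the negative controls throughout. Between the lines, by limma, 7 of the 12 C2 genes were higher in Li-7 and 0 lower, against 24.3% and 20.7% of genes. Higher and lower numbered 4 and 0 of the 6 plasmin genes, and 6 and 4 of the 14 phosphatidylserine genes. They numbered 5 and 4 of the 14 other partners, and 1 and 1 of the 5 genes of the annexin A1 list. Among genes above the negative controls on all arrays, higher and lower numbered 4 and 0 of 6 C2 genes. They numbered 1 and 1 of 4 phosphatidylserine genes, and 3 and 4 of 10 other partners. In the plasmin list 0 genes lay above the negative controls on all arrays, and in the annexin A1 list 1 did, called in neither direction. Over all genes 1197 of 5552 were higher and 1044 lower. More higher than lower among such genes was thus seen in the C2 list too, beside the S100 and membrane repair lists. After quantile normalization 8 genes of these lists passed for the mimic, ACTB lower and AXL, CAPN2, PLAU, PLAUR, S100A11, SRI and TYRO3 higher. Under that setting 465 of the 12381 genes passed.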

How the data were processed

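Expression was measured on 4 Affymetrix arrays, 1 for each of the groups Li-7 mimic, Li-7 control, HEP-G2 mimic and HEP-G2 control, grouped by sample title. The authors deposited 1 table of probe-set values, read here as log2 from their range. Per the submitters' processing notes they were made with Affymetrix Expression Console and Transcriptome Analysis Console, with versions, background correction, normalization and log base not given in the sources used here, and folds hold on that scale only. The number of arrays limits precision.

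Of 24351 probe sets, 17709 had 1 gene, and all matched RefSeq by Entrez identifier. The brightest probe set stood for each of 17687 genes, and genes whose 4-array mean reached the 30% quantile (4.90) were kept. Differences were taken on the deposited values. limma 3.58.1 in R 4.3.3 fitted line and treatment over all genes kept, with Benjamini-Hochberg adjustment at 0.05, 1 residual degree of freedom and 5.85 prior ones. Its p-values therefore set a difference against disagreement between pairs of arrays, taken mostly from all genes together and less from the gene itself. The fit was tested on simulated data, where it found most changed genes but the share of false calls exceeded the threshold in most runs. Bounds replace values at or under the 95th percentile of the negative controls by that percentile or, if higher, the value itself.

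The members, lists and tests were chosen with earlier results of these data known. Named genes were the 13 annexins, HMGA1, up to 4 genes per list with the largest mean mimic change, any that passed, and the 3 nearest to the annexin with the widest line difference. Other genes, the markers apart, were named after their values were seen. Promoter and microRNA sequences are those of RefSeq, GRCh38.p14.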

Additional observations from a re-analysis of the deposited data

Results flagged for a closer look

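Mimic minus control had opposite signs in the lines for 5 genes among the 13 annexins and the genes that the naming rule took from the related lists, and this difference has no test because no group had a second array. Opposite signs occurred in 34.9% of all genes tested. The 5 cannot be set against that share, because the list genes were named for a large mean change, which favours equal signs. The Li-7 minus HEP-G2 difference of the responses was -0.69 for ANXA4 and -1.02 for ANXA6, with all values above background. It was 0.41 for ANXA8 and 0.78 for ANXA8L1, which were under the negative controls on every array, and -0.73 for SERPINE2, which was under them in HEP-G2.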

How the results depend on the processing

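The labels carry no replicate numbers and each group had 1 array, so the only pairing possible was by line. Line as a factor in the fit already sets the mimic and control array of each line against each other. The mimic and line differences of the 10 annexins kept within 1.5-fold of their reported values in all 90 recomputations by quantile normalization, median centring or cyclic loess, the largest shift being 0.153 in log2. The sign changed in 2 of them, both near 0 (ANXA7 between lines, ANXA4 in Li-7). The cause of the changes in count below was not tested. Of all genes, 52 passed for the common mimic response (42 lower), against 465 after quantile normalization (273 lower), 23 after cyclic loess (19 lower), 366 with a filter at the median gene, 411 with an intensity trend, 1 with an ordinary t statistic and 0 with line left out. A filter at the negative controls, added after seeing the data, gave 200. Genes of the related lists that passed numbered 0, against 8 after quantile normalization, 6 with the filter at the median gene, 4 with the trend and 1 with the filter at the negative controls. The line difference passed in 5563 genes, against 1 with an ordinary t statistic. At a 1.5-fold limit 3112 genes differed in Li-7 cells and 4032 in HEP-G2 cells, against 971 and 1491 at 2-fold. Signal at or under the negative controls limits ANXA1, ANXA10, ANXA13 and the ANXA3 control value in HEP-G2 and ANXA13 in Li-7.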
